A study of Mus musculus with 4 samples.

Results

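A set of 9 transcription and growth regulators of resting lymphocytes were examined: Lef1, Tcf7, Ets1, Satb1, Klf2, Klf4, Ikzf1, Btg1 and Btg2. Their members in the data were all probe sets annotated with one of these symbols, which gave 11 of 13179 probe sets on the 2 chips of an Affymetrix mouse set. The A chip held 8 of them, for 7 genes, and the B chip held 3, for Lef1, Ets1 and Btg1. No listed probe set carried the symbol Tcf7, so 8 of the 9 genes could be described and Tcf7 was not analysed here.

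The arrays read RNA of memory and naive CD8 T cells. The cells came from B6.2.16 mice, a line with a transgenic T cell receptor that recognises the male antigen HY. Memory cells began as spleen cells from B6.2.16 females without RAG1, which were cultured with HY peptide for 4 days and transferred into RAG1-deficient female hosts. They were recovered after 200 days from spleen and lymph nodes with magnetic beads, at a stated purity above 80%. Naive cells were taken from the lymph nodes of RAG1-deficient B6.2.16 females that had received no such culture or transfer, at a stated purity above 85%. RAG1 is a recombinase needed to form antigen receptors, so every animal of both groups lacked other T and B cells, while macrophages, dendritic cells and NK cells do not need it. No age is stated for the animals, nor whether they were pooled. Each group had 1 array per chip. No error between samples can therefore be estimated and no test was made, and each difference below compares 1 memory array with 1 naive array. Tissue, culture, transfer and sorting changed together with the group and cannot be told apart.

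Naive T cells circulate in a quiescent state that is kept up actively. Lef1 and its relative Tcf7 bind DNA through an HMG box and work with beta-catenin and Groucho-type corepressors, and both are abundant in naive T cells. Klf2 is a zinc finger factor that drives the lymph node homing and egress receptors of naive T cells, Satb1 folds chromatin loops in the T lineage, and Ikzf1 (Ikaros) is a zinc finger regulator of lymphoid genes. Btg1 and Btg2 belong to the antiproliferative BTG/TOB family and link messenger RNAs to the CCR4-NOT deadenylase.

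The B arrays of the 2 groups ran together, with Spearman's rho at 0.85 over 6540 gene probe sets. On the A chip rho was 0.10 over 6529 probe sets, and the 55 control probe sets correlated between the chips at 0.96 for the memory arrays and at 0.21 for the naive arrays. The naive A values thus hardly tracked their gene names, and the A chip is used below only for the level of the memory array. Values are intensities, and 34.0% of the memory and 35.6% of the naive values on the B chip lay below zero. The noise floor of the B chip was 423, and a gene was called when its brighter array reached 2 times the floor and the arrays differed at least 2-fold, where a value under the floor counts as the floor. By this rule 40 of 462 measured genes (8.66%) were lower and 41 (8.87%) higher in memory.

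Lef1 had a memory intensity of 256 on the B chip, against a naive intensity of 1549. The memory value lay under the floor and also under the memory array's own noise limit of 287, so the difference can only be bounded. Lef1 was at least 3.66-fold lower in memory, a log2 ratio of -1.87 with the memory value set to the floor. This bound, like those below, takes the single reading above the floor as exact and makes no allowance for its error. The probe set is of a class (letter s in its name) whose probes can match similar sequences of more than 1 gene.

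A relative of Lef1 showed the same pair of values. Tcf7l1, another HMG-box member of the TCF/LEF family, read 279 in memory against 1542 in naive, with a log2 ratio of -1.87. Its memory value was also under the floor, so it was at least 3.65-fold lower. Over the 2 arrays Tcf7l1 was the gene nearest to Lef1 by distance of floored log2 intensities (0.0066). Both memory values count as the floor in this distance, so it compares only the naive brightness of different probe sets and does not rank transcripts. The next were Tnfaip3, an inhibitor of NF-kappaB signalling, at 0.10 (404 against 1665), and Hmmr, a hyaluronan receptor of dividing cells, at 0.23 (477 against 1398). The Tcf7l1 probe set belongs to the same class of possibly shared probes as that of Lef1, and whether the 2 probe sets read the same transcript was not tested. The remaining measured gene of the TCF/LEF list was the Groucho-related corepressor Tle5, which read 491 in memory against 463 in naive and was not called. The list named 12 genes, of which 6 had a B-chip probe set, 3 were measured and 0 were higher. The 2 called lower, beside 8.66% of all measured genes, were Lef1 itself and Tcf7l1, and both counted as measured through the naive array alone. The other corepressors on the B chip, Tle1 and Tle3, were under the floor on both arrays.

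**Figure D1:**
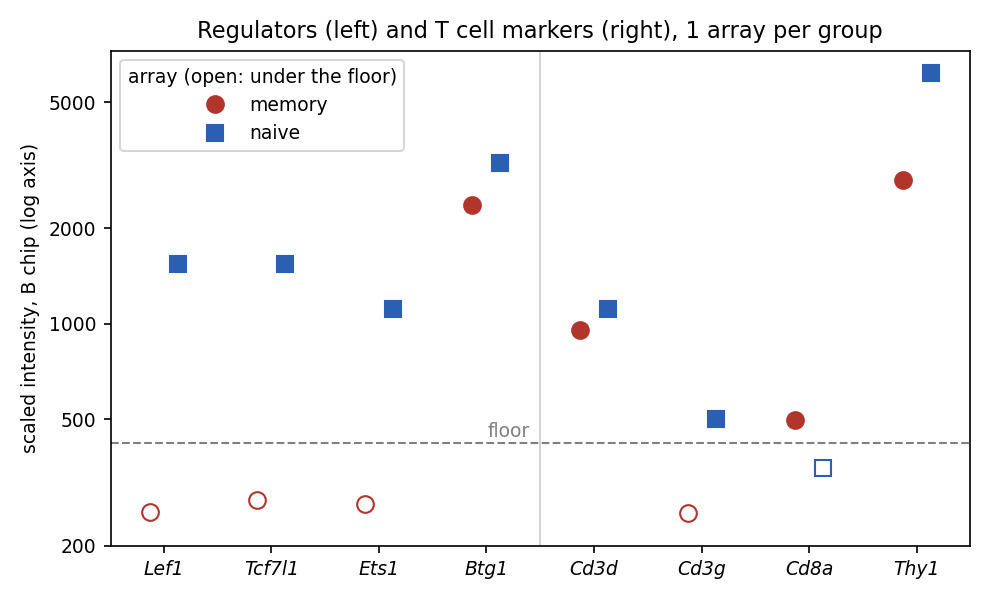
Scaled intensity (log axis) of 4 regulators and 4 T cell markers on the memory (circles) and naive (squares) B arrays, 1 array per group. Open symbols lie under the floor of 423 (dashed). Lef1, Tcf7l1 and Ets1 have naive values from 1114 to 1549 and memory values under the floor, whereas Btg1 and Cd3d lie above it on both arrays.

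RefSeq lists several start sites for Lef1, and 2 of its promoter windows are shown because Lef1 was called lower and the windows differ in the motifs they hold. Both are on the plus strand of GRCm38.p6, and each covers 250 bases before to 50 after a start site. The window of the most upstream start is chr3:131110047-131110346 and that of the most downstream start is chr3:131156044-131156343. Capitals mark matches, on either strand, to a GC box core (GGGCGG), a TCF/LEF core (CTTTGA), an ETS core (GGAAGT) or a CRE core (ACGTCA).
Lef1 upstream window: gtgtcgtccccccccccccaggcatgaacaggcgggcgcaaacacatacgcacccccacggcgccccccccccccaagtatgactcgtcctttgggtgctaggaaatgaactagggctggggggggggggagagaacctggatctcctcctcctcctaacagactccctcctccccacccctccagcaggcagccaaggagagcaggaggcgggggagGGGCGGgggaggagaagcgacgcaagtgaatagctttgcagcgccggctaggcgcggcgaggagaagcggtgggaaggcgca
Lef1 downstream window: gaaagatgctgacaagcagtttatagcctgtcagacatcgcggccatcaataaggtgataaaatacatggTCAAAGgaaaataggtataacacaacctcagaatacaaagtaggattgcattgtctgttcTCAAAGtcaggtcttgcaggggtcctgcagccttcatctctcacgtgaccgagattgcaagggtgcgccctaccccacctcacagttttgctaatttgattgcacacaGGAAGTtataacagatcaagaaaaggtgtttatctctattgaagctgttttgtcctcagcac
The upstream window held 1 GC box core, 32 bases before its start site, and none of the other motifs. The downstream window held 2 TCF/LEF cores, 180 and 120 bases before its start site, and 1 ETS core 12 bases before it. Of 32851 promoter windows of this length, 5257 held a TCF/LEF core, 23.8% held an ETS core and 35.7% a GC box core. Which start sites were used in these cells was not tested, and a match of letters does not show binding.

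Ets1, the founding member of the ETS family and a factor abundant in resting T cells, read 271 in memory against 1114 in naive on the B chip. The memory value lay under the floor, so Ets1 was at least 2.64-fold lower, with a log2 ratio of -1.40 at the floor. This probe set carries no class letter. By the same distance the genes nearest to it were Mpdu1, a dolichol-pathway protein, at a distance of 0.023 (87.3 against 1132), the centromere protein gene Cenpx at 0.028 (370 against 1136) and the potassium channel gene Kcnn1 at 0.20 (484 against 1088).

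A second Ets1 probe set, on the A chip, read 846 on the memory array. That is 4.60 times the noise limit of 184 of that array. Ets1 signal was therefore above noise with 1 probe set and under noise with the other in the memory preparation. Intensities of different probe sets are not on a common scale, and no ratio was formed between them.

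Of 17 ETS genes named in the list, 6 had a B-chip probe set and 3 were measured, of which Ets1 was lower and 0 were higher. The 2 others had memory values under the floor and naive values only just above it. Elk1, a ternary complex factor that responds to growth signals, read 205 against 565, and Ets2 read 125 against 445. Their log2 ratios of -0.42 and -0.08 are bounds, and neither was bright enough to be called. On the memory A array, where 26.7% of all gene probe sets were above the noise limit, 3 of 7 ETS genes were above it. Besides Ets1 these were Spib, at 585, and Spi1 (PU.1), at 376, which are best known from B cells and myeloid cells.

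Lef1 and Ets1 counted as measured through their naive arrays alone. A gene that bright in naive and under the floor in memory had to be called lower, so the 2 of 3 measured members called carry no weight beside the 8.66% of all genes. Genes of like brightness in naive were also counted, in a band picked out after the values were known. Of 99 genes with a naive intensity from 846 to 1691, which is 2 to 4 times the floor and takes in Lef1, Ets1 and Tcf7l1, 10 had a memory value under the floor (10.1%) and 16 were called lower (16.2%). The median memory intensity of the 99 genes was 961. The 10 included Lef1, Ets1, Tcf7l1 and Bhlhe40, a stress-responsive helix-loop-helix repressor. The 10.1% thus counts Lef1 and Ets1 themselves and lends their calls no weight.

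**Figure D2:**
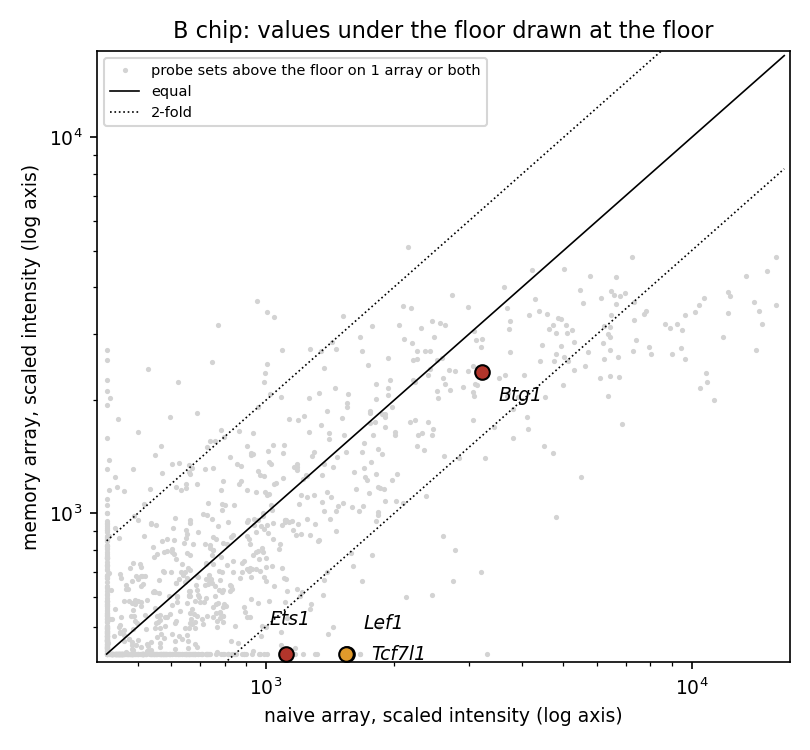
Memory against naive scaled intensity on the B chip (log axes) for the 1056 probe sets above the floor on 1 array or both, with values under the floor drawn at it. Lef1 and Tcf7l1 overlap at a naive intensity near 1549, Ets1 lies beside them at 1114, and Btg1 lies between the line of equal intensity and the lower 2-fold line.

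Btg1 was the member measured on both B arrays, at 2377 in memory against 3218 in naive. The log2 ratio was -0.44, inside 2-fold. The median ratio of the 49 genes with naive intensities from 1691 to 3382 was -0.14. With intensity-dependent (lowess) normalization the Btg1 ratio turned to 0.068. Another Btg1 probe set, made from the same sequence record, read 1294 on the memory A array, 7.04 times its noise limit. Both Btg1 probe sets are of the class marked f, in which probes match a family of related sequences.

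Btg2, the close relative of Btg1 and an early response gene in many cell types, had a probe set on the A chip alone. It read 727 on the memory array, 3.96 times the noise limit. Whether it differed from naive cells was not analysed here. Of the partners of these proteins, the poly(A)-binding protein gene Pabpc1 was measured on B at 3452 in memory against 4387 in naive, a log2 ratio of -0.35. A second Pabpc1 probe set gave -0.27. In the BTG/TOB and CCR4-NOT list 2 of 5 genes with a B-chip probe set were measured, and 0 were lower or higher. Tob1, Btg3 and the deadenylase gene Cnot8 were under the floor on both arrays. On the memory A array Cnot6l, a deadenylase of the CCR4-NOT complex, read 741, and Tob1, Btg4, Cnot2 and Cnot7 were under the noise limit.

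The promoter windows of Btg1 and Btg2 are shown because these paralogs were both above noise in the memory preparation and because theirs were the only ones, among the most upstream windows of the 8 members that had any, to hold a CRE core, the core of the cAMP response element. The Btg1 window is chr10:96616751-96617050 on the plus strand and the Btg2 window chr1:134079106-134079405 on the minus strand, both of GRCm38.p6, written 5′ to 3′ along the gene with the same marking as for Lef1.
Btg1: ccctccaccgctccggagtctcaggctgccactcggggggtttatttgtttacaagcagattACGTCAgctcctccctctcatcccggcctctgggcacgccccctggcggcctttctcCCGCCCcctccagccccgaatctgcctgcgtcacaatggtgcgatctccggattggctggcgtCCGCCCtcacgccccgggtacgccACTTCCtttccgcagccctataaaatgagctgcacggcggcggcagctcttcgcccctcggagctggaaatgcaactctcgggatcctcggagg
Btg2: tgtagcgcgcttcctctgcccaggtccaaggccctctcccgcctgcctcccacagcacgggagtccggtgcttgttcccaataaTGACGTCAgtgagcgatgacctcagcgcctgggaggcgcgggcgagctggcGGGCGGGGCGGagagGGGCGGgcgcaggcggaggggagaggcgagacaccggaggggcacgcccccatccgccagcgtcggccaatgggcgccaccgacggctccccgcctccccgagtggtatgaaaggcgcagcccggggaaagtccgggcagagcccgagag
The CRE core of Btg1 lay 188 bases before its start site. In Btg2 the core was met on both strands, in overlapping positions 166 and 164 bases before its start site, which together spell TGACGTCA. Btg1 also held 1 ETS core and 2 GC box cores, and Btg2 held 3 GC box cores, the first 2 of which overlap. A CRE core was found in 7.51% of all 32851 windows. A GC box core was found in the most upstream windows of 7 of the 8 members, a TCF/LEF core in 0 and an ETS core in 2. Ets1 had no window in the table used.

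The remaining members were read on the A chip. Satb1 read 901 on the memory array, 4.90 times the noise limit of 184. Klf4, a zinc finger factor that restrains proliferation, read 584, 3.18 times the limit. Klf2 read 522, 2.84 times the limit. All 3 were thus well above noise in the memory preparation.

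Ikzf1 was the exception among the members on the A chip. Its 2 probe sets read 5.99 and 44.9 on the memory array, both under the noise limit, so no Ikzf1 signal was detectable with them. Ikaros is made in all lymphocytes, and a value under noise does not show that the transcript was absent. Other Ikaros family genes had no listed probe set on either chip.

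In all, 6 of the 8 member probe sets on the memory A array were above the noise limit, where 26.7% of 6529 gene probe sets were. The 6 read between 522 and 1294, and the median of all 8 was 655 against 63.9 over all gene probe sets. The count was 6 with the noise limit halved, doubled or taken from the noisier array, and without scaling. No member read between 44.9 and 522, so limits from 91.9 to 367 could not change it and say nothing about stability. The members were also chosen with earlier results of these data known.

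**Figure D3:**
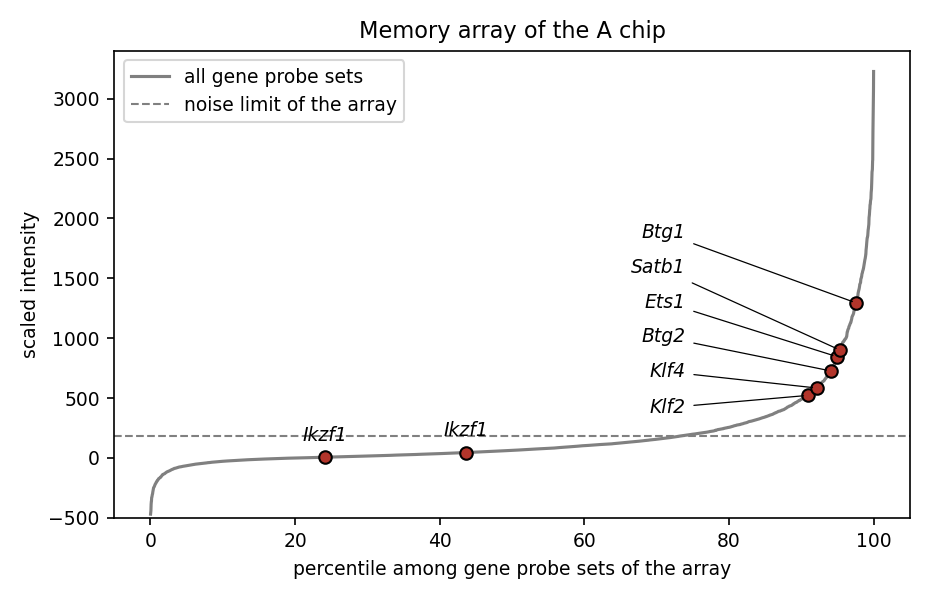
Scaled intensity on the memory array of the A chip against percentile among its 6529 gene probe sets. The 6 member probe sets for Klf2, Klf4, Btg2, Ets1, Satb1 and Btg1 lie between 522 and 1294, above the noise limit of 184 (dashed), and both Ikzf1 probe sets lie under it. Brightness of different probe sets does not rank the genes by transcript number.

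Genes that are known in T cells to depend on these factors, or that are used as readouts of them, were available mainly on the A chip. Of 6 such genes on the memory A array, 4 were above the noise limit by their brightest probe set, beside 26.7% of all gene probe sets. That share is over probe sets, so a gene with several probe sets is favoured in the comparison. The lymph node homing receptor Ccr7 read 504, the integrin chain Itgb7 485, the interleukin-7 receptor chain Il7r 353 and the actin crosslinker Actn1 912, while its 2 other probe sets read -72.9 and 22.0, under the limit. S1pr1, the egress receptor controlled by Klf2, read under the limit. So did Rag1 (8.99), in which all the animals were deficient, so its level is no readout here. On the B chip 2 of 4 such genes were measured. Thy1, a glycoprotein on the surface of mouse T cells, was 2.17-fold lower in memory (2848 against 6184), a call lost with median-ratio scaling (log2 ratio -0.97), quantile normalization (-0.34) and lowess normalization (-0.15). The coreceptor chain Cd8a read 498 in memory against 352 in naive, which was under the floor, and its log2 ratio was thus 0.24 or more.

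The list of other quiescence regulators named 28 genes, of which 9 had a B-chip probe set. Of these 2 were measured, and 0 were lower or higher. Nfkbia, the inhibitor of NF-kappaB that is itself induced by it, read 3904 against 6482, a log2 ratio of -0.73. A second Nfkbia probe set read 2044 against 3907, a log2 ratio of -0.93, also not called. The helix-loop-helix inhibitor Id2, which is raised in effector and memory CD8 T cells, read 3247 against 3745, a log2 ratio of -0.21. Another Id2 probe set, on the A chip, read 3.99 on the memory array, under the noise limit. The ratios of Nfkbia, Id2 and Pabpc1, each by its brightest B-chip probe set, turned positive with quantile normalization (0.68, 0.58 and 0.59). They did so with lowess normalization as well (0.44, 0.55 and 0.54). The other 7, such as Foxo3, Gata3 and Cdkn1b, were under the floor on both B arrays. On the memory A array 3 of 16 genes of this list were above noise, beside 26.7% of all gene probe sets. The 3 were the RNA-destabilising zinc finger genes Zfp36 (1405) and Zfp36l2 (253) and the cell cycle inhibitor Cdkn1b (612).

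Over all related lists, with the 9 members left out, 31 of 100 genes had a B-chip probe set and 9 were measured. Of the 9, Tcf7l1 and Thy1 were lower, 0 were higher and 7 were not called, beside 8.66% of all measured genes called lower. Tcf7l1 was measured through its naive array alone, and Thy1 lost its call under 3 scalings, so the count carries no weight. Their median log2 ratio was -0.35, against -0.12 over all 462 measured genes, and it turned to 0.17 with quantile and with lowess normalization, where that of all genes was -0.0097 and -0.017. On the memory A array 11 of 38 of these genes (28.9%), each by its brightest probe set, were above the noise limit, near the 26.7% of all gene probe sets. The SATB and KLF lists had 0 measured genes on the B chip.

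Markers of cell types moved between the arrays as well. Each B-chip count of calls below stands beside 8.66% of all measured genes called lower and 8.87% called higher. Among T cell markers, 6 of 12 had a B-chip probe set and 4 were measured, and of these Thy1 was lower and 3 were not called. Cd3d, a chain of the T cell receptor complex, read 959 against 1115, a log2 ratio of -0.22, and its partner Cd3g 254 against 502, the memory value under the floor. The summed B-chip intensity of the 6 T cell markers, with values below zero set to 0, was 4965 in memory against 8529 in naive. Without Thy1, the sum of the other 5 was 2117 against 2344. Among macrophage markers 11 of 12 on the B chip were measured, 6 were higher, 0 lower, and the sum was 28627 against 16511. Of 6 measured dendritic cell and MHC class II genes 2 were higher and 1 lower (sum 12846 against 17010). The lower one was Cd74, at 3068 against 9507, and the direction of that sum rests on it alone. The 2 higher were H2-Ab1 (2500 against 1009) and H2-DMb1 (1503 against 728). Of 4 erythroid genes 1 was higher and 2 lower (6995 against 18198), and of 3 granulocyte genes 0 were called (7772 against 8774). The 2 NK receptor genes, Klra4 and Klra8, were not called (381 against 1064). Their memory values were under the floor and their naive values, 548 and 516, only just above it, with floored log2 ratios of -0.37 and -0.29. The 3 B cell markers Pax5, Cr2 and Cd79a were under the floor on both arrays. On the memory A array 1 of 2 probe sets of the B cell marker Ms4a1 was above the noise limit, at 301. In such preparations fewer T cells and less RNA per T cell cannot be told apart, and the part of these other cells in the low memory values of Lef1 and Ets1 was not tested. On the memory A array 26.7% of all gene probe sets were above the noise limit. Of the marker genes there, each by its brightest probe set, 5 of 8 macrophage, 3 of 4 granulocyte and 3 of 4 T cell genes were above the limit. So were 2 of 3 dendritic cell and MHC class II, 1 of 1 erythroid, 1 of 3 B cell and 0 of 1 NK genes. A gene with several probe sets is favoured beside a share over probe sets. The T cell genes were Cd3e (316), Cd247 (240) and Cd28, whose 186 was only just above the limit of 184. The macrophage lysozyme Lyz2 (2004) and the granulocyte gene S100a8 (2479) were above it. Under it were Mpeg1 (95.8), Fcgr1 (113), Marco (103) and Elane (72.9). Another Mpeg1 probe set, on the B chip, read 3665 in memory against 954 in naive and was among those called higher. The part of other cells in the levels of Klf2, Klf4 and Btg2 was not tested.

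Under the 4 other scalings the log2 ratios ran from -1.87 to -1.80 for Lef1 and from -1.43 to -1.32 for Ets1. The memory values were set to the floor in each of them, so these ratios could hardly move and say nothing about stability. With the floor halved to 211 both memory values lay above it, and the ratios were -2.60 and -2.04. With the floor doubled they were -0.87 and -0.40, inside 2-fold, and the limit on brightness rose to 1691, above both naive values.

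**Figure D4:**
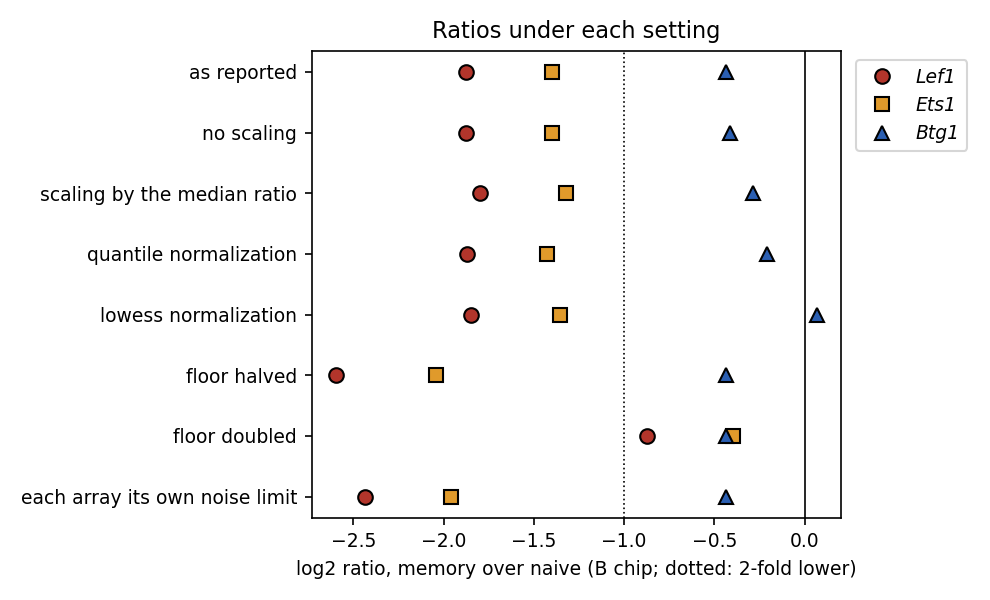
Log2 ratio of memory to naive on the B chip for Lef1, Ets1 and Btg1 as reported and under each other setting, with the 2-fold limit dotted. The Lef1 and Ets1 ratios are read against a floor or noise limit in each setting except the halved floor, so they follow the floor and hardly the scaling, and Btg1 lies on the other side of zero with lowess normalization.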

How the data were processed

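Total RNA of memory and naive CD8 T cells was extracted with Trizol and hybridised as cRNA, per the labels' protocols. The deposited intensity values are whole numbers, 1 per probe set, with negative numbers among them. Their 2% trimmed mean was near 150.2 on the A arrays and between 150.3 and 150.4 on the B arrays, so they appeared to be scaled. The software and its settings are not stated in the labels. All columns were matched to samples.

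Symbols came from the platform annotation, updated by gene number through a RefSeq table of GRCm38.p6. A single symbol was listed for 5560 A-chip and 2001 B-chip probe sets, several for 197 and 27, and none for 827 and 4567. Promoter windows are RefSeq's. Without the 55 controls per chip, the paired arrays were brought to a common 2% trimmed mean. The noise limit of an array was set at percentile 95 of the absolute negative values, and the B-chip floor was the higher of the limits (287 in memory, 423 in naive). The brightest probe set stood for a gene, which was measured if above the floor on 1 array or both. A call needed a brighter array at 2 times the floor and a ratio of at least 2-fold. No test was possible with 1 array per group, and precision is limited by the number of arrays. Python 3.11.15, numpy 2.4.6, pandas 2.3.3, scipy 1.17.1 and statsmodels 0.14.6 were used.

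The members and lists were chosen with earlier results of these data known. Named genes were all members, each called gene of the related lists, up to 2 uncalled measured genes per list (the brightest), and the 3 genes nearest to each called member over the 2 arrays. Other genes named were chosen after their values were seen. Alternatives were other scalings (none, median ratio, quantile, lowess with span 0.4), other floors, other limits of size and brightness, the mean of probe sets, probe sets without a class letter and genes above the floor on both arrays.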

Additional observations from a re-analysis of the deposited data

How the results depend on the processing

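Every setting listed was run, and the separate noise limit for each array was chosen after seeing the data. The Lef1 log2 ratio of -1.87 became -0.87 with the floor doubled, where Ets1 became -0.40, and both calls were lost. The limit on brightness rose with the floor to 1691, above both naive values. With each array's own noise limit the ratios were -2.43 and -1.96. Btg1 turned to 0.068 with lowess normalization, and the cause was not tested. The number of members called lower, 2 as reported, was 0 with the floor doubled, 0 when the brighter array had to reach 4 times the floor, 0 among genes above the floor on both arrays, and 1 at 3-fold. The counts of 0 were fixed beforehand. Both naive values lay under 1691, which is also 4 times the floor, and Btg1 alone was above the floor on both arrays. The number called lower was 1 among probe sets without a class letter, where Ets1 alone had a probe set. It was 2 in the other settings, and 0 members were called higher in any. Of the related lists, 2 of 9 measured genes were lower as reported and 1 of 9 with median-ratio, quantile or lowess scaling. The count was 1 of 5 with the floor doubled and 4 of 19 with the floor halved. As reported, 40 of 462 measured genes were lower and 41 higher. The number measured changed with the setting. The calls were 21 and 48 of 466 with quantile normalization, 19 and 51 of 462 with lowess normalization and 30 and 51 of 465 with median-ratio scaling. The median log2 ratio of the 696 probe sets above the floor on both arrays was -0.15 as reported and 0.0058 with lowess normalization. With the floor doubled 24 genes were lower and 15 higher. No paired analysis was possible because each chip held 1 array per group, and leaving out an array would leave no comparison.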

Other observations

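Lef1 and Ets1 were bright in the naive preparation and under the floor in the memory preparation. This pattern was shared by 24 of 6540 gene probe sets on the B chip. Only 1056 of the 6540 were above the floor on 1 array or both, so most could not show it. Of the 99 genes with naive intensities from 846 to 1691, 10 (10.1%) showed it, with Lef1, Ets1 and Tcf7l1 among them. Naive intensities of the 24 probe sets ran from 848 to 3299, and 4 of them, Lef1 included, read as bright as Lef1 or brighter. Of the 24, 10 had 1 gene symbol and 14 could not be named here. The reverse pattern, at least 2 times the floor in memory and under the floor in naive, was also met in 24 probe sets, of which 17 had 1 symbol. Among the 10 named genes with the pattern of Lef1 were also Cdx2, a homeobox factor of the gut and early embryo (90.3 against 970), the chaperone gene Fkbp4 (201 against 888) and the actin nucleator Diaph1 (253 against 890).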
